A study of Homo sapiens with 6 samples.

Results

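The snoRNA host genes are long noncoding RNA genes that carry small nucleolar RNAs in their introns. They were chosen by name, as every gene called SNHG with a number, plus GAS5, EPB41L4A-AS1 and ZFAS1, which gave 28 of the 58825 genes of the deposited table. Of these 28 genes, 20 had at least 1 FPKM (sequenced fragments scaled to transcript length and to the mapped fragments of the library) in at least 3 of the 6 libraries and were tested. RNA came from PC9, an established human lung adenocarcinoma line with an activating EGFR mutation. In 3 libraries they overexpressed the rs3742076 A allele of FOXM1, which encodes a transcription factor of cell division, and in 3 libraries the G allele. The cells of all 6 libraries also received the EGFR inhibitor gefitinib at 100 nM for 24 h, so neither overexpression nor the drug was itself compared. No source used here names the vector, its promoter or the number of clones behind each group.

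A snoRNA host is transcribed and spliced, and its snoRNAs are trimmed out of the excised introns. Box C/D snoRNAs guide ribose methylation of ribosomal RNA, box H/ACA snoRNAs guide pseudouridylation, and scaRNAs do the same for spliceosomal RNAs in Cajal bodies. The spliced exons of many hosts begin with a terminal oligopyrimidine (TOP) tract, as the mRNAs of ribosomal proteins do, and are broken down by nonsense-mediated decay when they are translated, so that their level in the cytoplasm moves with growth and translation. Several hosts, among them GAS5 and ZFAS1, are also studied as long noncoding RNAs in their own right.

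The small RNAs below show what the introns of 7 hosts hold: the pair of hosts with the highest level, ZFAS1 and SNHG29, and 5 of the 6 hosts whose G libraries all lay below their A libraries. They are written from first to last base as DNA, from GENCODE release 29 on GRCh38, and each lies in an intron of the host transcript with the highest mean level. Capitals mark the C box and D box of the C/D snoRNAs, and the closing ACA of the others. Positions and strands were chr20:49280319-49280409 (+) for SNORD12B, chr17:16440036-16440106 (+) for SNORD49A, chr6:85677589-85677658 (-) for SNORD50B and chr5:9548836-9548905 (+) for SNORD123. They were chr20:38449370-38449503 (+) for SNORA60, chr4:118279190-118279320 (+) for SNORA24 and chr14:95533355-95533629 (-) for SCARNA13.
SNORD12B in ZFAS1: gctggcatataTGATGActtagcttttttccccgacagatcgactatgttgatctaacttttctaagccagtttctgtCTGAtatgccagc
SNORD49A in SNHG29: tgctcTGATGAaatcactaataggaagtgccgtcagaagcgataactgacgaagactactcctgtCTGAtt
SNORD50B in SNHG5: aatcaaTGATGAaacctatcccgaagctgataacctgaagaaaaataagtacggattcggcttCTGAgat
SNORD123 in SNHG18: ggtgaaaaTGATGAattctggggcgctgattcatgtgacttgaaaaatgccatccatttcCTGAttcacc
SNORA60 in SNHG11: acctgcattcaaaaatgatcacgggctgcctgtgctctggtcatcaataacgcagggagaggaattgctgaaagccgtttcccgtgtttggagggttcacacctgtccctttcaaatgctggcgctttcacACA
SNORA24 in SNHG8: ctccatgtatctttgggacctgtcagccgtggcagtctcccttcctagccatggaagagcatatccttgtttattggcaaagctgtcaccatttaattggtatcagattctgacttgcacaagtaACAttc
SCARNA13 in SNHG10: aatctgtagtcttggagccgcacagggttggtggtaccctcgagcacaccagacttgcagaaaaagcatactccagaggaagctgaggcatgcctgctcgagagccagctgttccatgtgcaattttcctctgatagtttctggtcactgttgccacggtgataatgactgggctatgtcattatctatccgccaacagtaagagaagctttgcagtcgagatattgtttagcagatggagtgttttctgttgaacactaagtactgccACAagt

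The depth of the libraries is unknown, because whole reads could not be recovered from the FPKM values. Between 12451 and 12548 genes reached 1 FPKM in A libraries and between 12700 and 12858 in G libraries, without overlap. The summed FPKM of all genes was 270219 to 277596 in A libraries and 253706 to 255269 in G libraries, without overlap. The share of all FPKM that fell on the host genes was 0.106% to 0.117% in A libraries and 0.110% to 0.114% in G libraries, and overlapped. FOXM1 itself read 25.5, 10.5 and 10.1 FPKM in A libraries and 14.6, 14.3 and 13.96 FPKM in G libraries. All 8 epithelial markers passed the filter in these cells. Of the 16 fibroblast, leukocyte and endothelial markers, COL1A1 at 1.63 to 2.25 FPKM and CD68 at 35.9 to 48.7 FPKM passed it. Of those that did not, CD14 read 0.680 to 1.17 FPKM and CDH5 0.167 to 0.410 FPKM. PTPRC, CD3E and DCN were at or near the value that stands for no estimate. In bulk RNA, fewer cells of a type and less RNA per cell cannot be told apart.

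No host gene passed the test, and 18 of 20 had a lower fitted level in G, a count that depended on the scaling of the libraries. Limma-trend on log2(FPKM + 1), adjusted by Benjamini-Hochberg over 12787 genes, called 0 of 20 hosts, where it called 0.109% of all genes. The smallest adjusted p of a host was 0.154, for SNHG11. The log2 change from A to G was negative for these 18 hosts, against 44.9% of all tested genes, and its median was -0.16 for hosts and 0.02 for all genes. Without A replicate 3 the host median was -0.09. With each library scaled to equal summed FPKM it was -0.06, with 12 of 20 hosts negative, and that of all genes was 0.11. Of the 20 hosts, 5 had an unadjusted p under 0.05, all lower in G, where 6.82% of all genes did so in that direction and 10.5% in the other. The G libraries lay wholly below the A libraries for 6 hosts (9.57% of all genes) and wholly above them for 0 (15.4%). After each host was centred on its mean over the 6 libraries, the median over hosts was 0.05, 0.11 and 0.12 on the log2 scale in the A libraries and -0.04, -0.07 and -0.07 in the G libraries. All 3 A libraries were thus above all 3 G libraries, with a pooled SD within groups of 0.03. These medians were taken without rescaling, and the summed FPKM of all genes was also lower in every G library. They were not taken over all genes or with libraries scaled to equal summed FPKM.

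**Figure D1:**
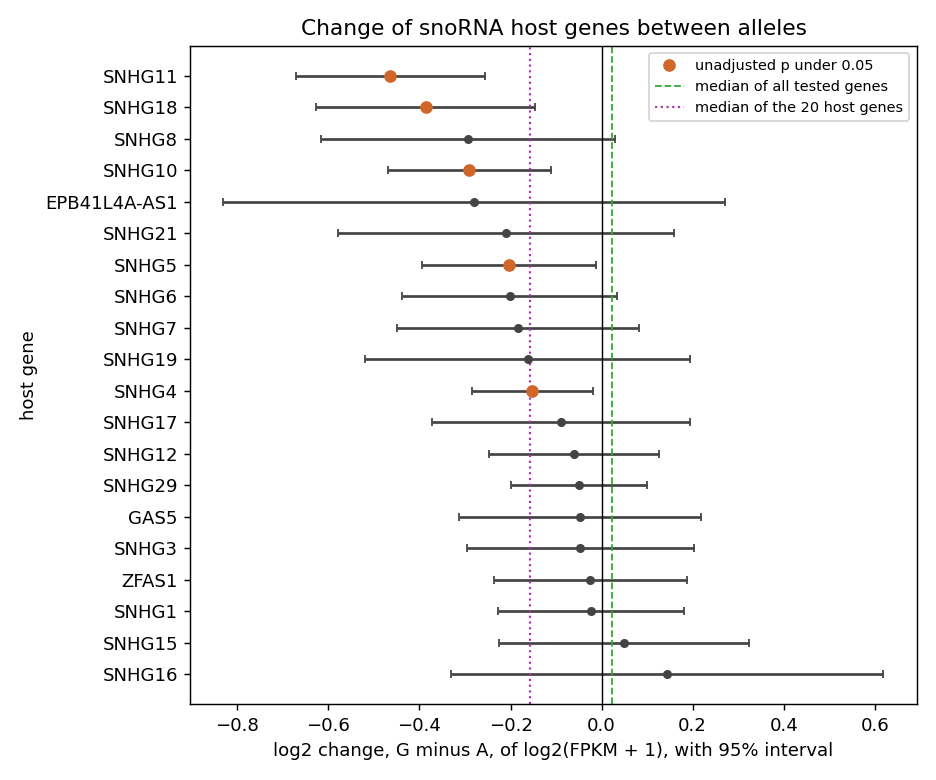
Log2 change from A to G of each tested host gene, on the log2(FPKM + 1) scale, with its 95% interval (limma-trend, 3 libraries per allele). The dashed line is the median of all 12787 tested genes and the dotted line that of the 20 hosts; the 5 orange points had an unadjusted p under 0.05, all below 0.

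A pair of hosts carried most of the signal. ZFAS1, which starts head to head with the ZNFX1 gene, read 77.3, 89.6 and 93.6 FPKM in A libraries and 90.7, 85.6 and 79.3 FPKM in G libraries. SNHG29 read 67.7, 75.2 and 75.6 FPKM against 73.0, 67.4 and 70.4 FPKM. The groups overlapped for both, and together these genes made up 50.8% to 56.3% of the summed host FPKM of a library. The log2 change of ZFAS1 was -0.02 (95% interval -0.24 to 0.19, limma adjusted p = 0.903). That of SNHG29 was -0.05 (-0.20 to 0.10, adjusted p = 0.702). ZFAS1 (ENSG00000177410) spans 49278178 to 49295738 on the plus strand of chromosome 20, and SNHG29 (ENSG00000175061) spans 16438822 to 16478678 on the plus strand of chromosome 17, in GRCh38.

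Below them, 5 hosts lay between 10 and 30 FPKM, and their groups overlapped as well. SNHG6 read 26.1, 28.3 and 28.3 FPKM in A libraries and 22.1, 22.2 and 27.7 FPKM in G libraries. Here G replicate 3 lay inside the A range and the other G libraries lay below it (log2 change -0.20, interval -0.44 to 0.03, limma adjusted p = 0.348). SNHG19, with a single annotated transcript of 342 bases, read 19.1, 15.98 and 23.2 FPKM against 19.1, 17.4 and 14.9 FPKM (log2 change -0.16, adjusted p = 0.598). A replicate 3 was the highest and G replicate 3 the lowest, and the other libraries of both alleles overlapped.

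GAS5, named for its rise in growth-arrested cells and known as a decoy of the glucocorticoid receptor, read 15.3, 18.5 and 19.7 FPKM in A libraries and 19.1, 16.01 and 16.4 FPKM in G libraries. The G values lay inside the A range, and the log2 change was -0.05 (interval -0.31 to 0.22, limma adjusted p = 0.851). SNHG7, the host of the SNORA17 snoRNAs, read 12.4, 15.7 and 16.2 FPKM against 11.9, 13.0 and 13.5 FPKM (log2 change -0.18, adjusted p = 0.433), with A replicate 1 among the G values. SNHG1, the host of a run of C/D snoRNAs, read 12.3, 10.6 and 11.7 FPKM against 10.7, 10.8 and 12.5 FPKM (log2 change -0.02, adjusted p = 0.908). The groups overlapped at gene level, while several of its transcripts, described further on, separated them.

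**Figure D2:**
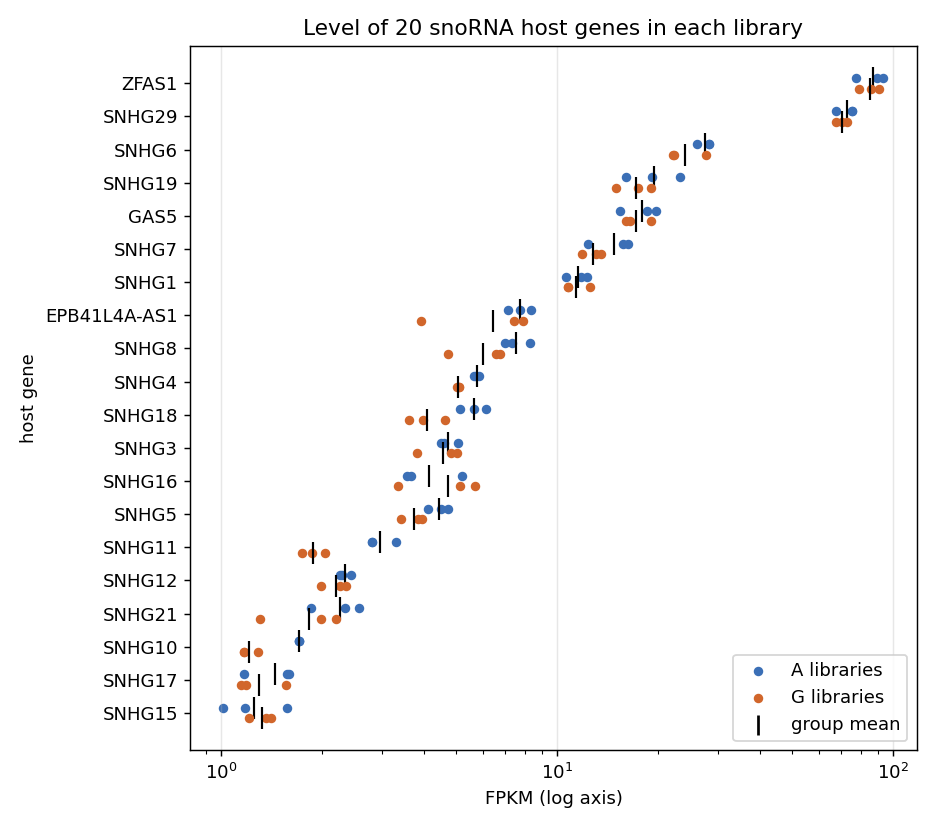
FPKM of each of the 20 tested host genes in each library, on a log axis, with A libraries in blue, G libraries in orange and a black tick at each group mean (n = 3). ZFAS1 and SNHG29 stand above the rest, and for SNHG8, SNHG4, SNHG18, SNHG5, SNHG11 and SNHG10 the orange points all lie left of the blue ones.

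The members whose alleles separated were of lower level. SNHG11, the host of SNORA60, read 2.81, 2.82 and 3.30 FPKM in A libraries and 2.04, 1.74 and 1.86 FPKM in G libraries. Every G value lay below every A value, and the gap between the groups was wider than the range within either. The log2 change was -0.46 (SE 0.086, interval -0.67 to -0.26), with an unadjusted limma p of 0.0014. The authors' deposited table gives SNHG11 a ratio of 0.632, a p of 0.015 and a q of 0.648, and marks no host gene as significant. SNHG11 (ENSG00000174365) lies on the plus strand of chromosome 20 from 38446578 to 38450921.

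SNHG18, the host of SNORD123, read 6.12, 5.66 and 5.14 FPKM in A libraries and 4.65, 3.99 and 3.62 FPKM in G libraries, without overlap. The log2 change was -0.39 (SE 0.099, interval -0.63 to -0.15, limma unadjusted p = 0.0073, adjusted p = 0.186). It lies on the plus strand of chromosome 5 from 9546200 to 9550609. SNHG10, the host of SCARNA13, read 1.70 FPKM in each A library and 1.17, 1.29 and 1.17 FPKM in G libraries (log2 change -0.29, SE 0.074, unadjusted p = 0.007, adjusted p = 0.186). The pseudocount of 1 shrinks the change of so low a gene, and with a pseudocount of 0.01 the log2 change was -0.49 (adjusted p = 0.192). The A values of SNHG10 differed among themselves by less than those of any other tested host relative to their mean (SD 0.0715% of the mean). GLRX5, an iron-sulphur cluster gene that overlaps SNHG10 on the opposite strand, read 10.4, 10.3 and 10.1 FPKM against 8.86, 7.52 and 9.77 FPKM. It too was lower in all 3 G libraries, and how reads of the overlap were divided between the strands was not tested.

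SNHG5, the host of SNORD50B, read 4.12, 4.51 and 4.74 FPKM in A libraries and 3.94, 3.85 and 3.42 FPKM in G libraries. The groups did not overlap, though A replicate 1 and G replicate 1 were close (log2 change -0.20, SE 0.079, limma unadjusted p = 0.0402, adjusted p = 0.27). SNHG8, the host of SNORA24, read 8.29, 7.31 and 7.01 FPKM against 4.72, 6.75 and 6.58 FPKM. G replicate 1 was the lowest, the other G libraries were just under the A range, and the log2 change was -0.29 (interval -0.62 to 0.03, unadjusted p = 0.0681, adjusted p = 0.323). SNHG4 read 5.65, 5.75 and 5.86 FPKM against 5.10, 5.04 and 5.10 FPKM (log2 change -0.15, SE 0.055, unadjusted p = 0.0306, adjusted p = 0.248).

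SNHG4 shares its strand and locus with gene models of MATR3, a nuclear matrix protein. One of these models read 22.8, 0.639 and 0.236 FPKM in A libraries and 28.3, 1.04 and 15.3 FPKM in G libraries, and varied widely within both alleles. With the chain of overlapping same-strand genes summed, the log2 change was -0.22 (limma adjusted p = 0.387) and the groups overlapped. Each sum was of transcript FPKM times length, while the value of a host alone was on FPKM. The scales thus differed, and the part played by length was not tested. In 2 such sums the direction differed from that of the host alone. SNHG3 with RCC1, the exchange factor of the GTPase Ran, gave 0.16 where SNHG3 alone gave -0.05, and SNHG21 with AC105339 gave 0.04 where SNHG21 alone gave -0.21. Such a sum also holds the other gene's own level. Group means rose from A to G for RCC1 (12.4 to 14.7 FPKM) and AC105339 (0.678 to 0.833 FPKM). Those of SNHG3 (4.72 to 4.56 FPKM) and SNHG21 (2.25 to 1.83 FPKM) fell. The levels of SNHG3, SNHG4 and SNHG21 remain uncertain, since the counting could split reads between overlapping genes.

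EPB41L4A-AS1, the host of SNORA13, read 7.15, 8.33 and 7.73 FPKM in A libraries and 3.93, 7.46 and 7.91 FPKM in G libraries. Only G replicate 1 lay below the A range, and the log2 change of -0.28 had an interval of -0.83 to 0.27 (limma adjusted p = 0.553). SNHG16 was the tested host with the highest positive change. It read 5.22, 3.57 and 3.66 FPKM against 5.71, 5.12 and 3.36 FPKM (log2 change 0.14, adjusted p = 0.727), and its groups overlapped. AC015802, which overlaps SNHG16 on the opposite strand, read 2.27, 3.64 and 2.17 FPKM against 0.946, 0.920 and 2.01 FPKM. The remaining hosts, SNHG3, SNHG12, SNHG15, SNHG17 and SNHG21, lay between 1.01 and 5.08 FPKM in every library and had overlapping groups, with log2 changes from -0.21 to 0.05.

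The SD over the mean of 3 libraries had a median of 8.92% over the tested hosts and both alleles, and reached 33.9% for EPB41L4A-AS1 in G. In order of level, ZFAS1 and SNHG29 had ranges over all libraries that did not meet, at 77.3 to 93.6 and 67.4 to 75.6 FPKM. SNHG6 stood apart from SNHG29 above it and, except for 1 library of SNHG19, from the hosts below. Going down in level, SNHG19, GAS5, SNHG7 and SNHG1 each overlapped in range with the next named. The same held from EPB41L4A-AS1 through SNHG8, SNHG4, SNHG18, SNHG3 and SNHG16 to SNHG5.

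The other 8 members did not pass the filter. SNHG9, the host of SNORA78, reached 1 FPKM in A replicate 3 alone (1.72 FPKM) and read 0.202 to 0.868 FPKM in the other libraries. SNHG20 read 0.565 to 0.926 FPKM, SNHG26 0.267 to 0.725 FPKM, SNHG25 0.190 to 0.552 FPKM and SNHG22 0.0630 to 0.265 FPKM. SNHG27 read 0.0102 to 0.361 FPKM. SNHG14, the long imprinted transcript of the Prader-Willi region that hosts the SNORD115 and SNORD116 clusters in neurons, read at most 0.00317 FPKM. SNHG28 was at the value that stands for no estimate in every library.

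The transcript table gave 281 transcripts of the hosts, of which 87 passed the filter. Limma-trend over 29990 transcripts called 0 of them, where it called 0.147% of all transcripts, and 6 had an unadjusted p under 0.05 (7.81% of all). The G libraries lay wholly below the A libraries for 10 host transcripts (6.4% of all transcripts) and wholly above them for 3 (9.59%). The log2 change was negative for 59 of 87, against 46.5% of all transcripts. The smallest adjusted p was 0.489, for a transcript of SNHG1.

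SNHG1 held several of these transcripts, in both directions. The retained-intron transcript ENST00000535076, a partly spliced form of 849 bases, read 19.2, 11.1 and 11.8 FPKM in A libraries and 5.59, 7.67 and 6.48 FPKM in G libraries (log2 change -0.96, limma adjusted p = 0.489). The spliced transcript ENST00000540725, of 10 exons and 1374 bases, read 0.123, 0.241 and 0.654 FPKM against 1.28, 5.37 and 10.5 FPKM (log2 change 2.06, adjusted p = 0.543). Another form, the retained-intron transcript ENST00000538654, read 1.43, 1.32 and 1.69 FPKM against 2.19, 2.27 and 3.24 FPKM (log2 change 0.51, adjusted p = 0.608). The spliced transcript ENST00000541615, of 9 exons, lay wholly lower in G (log2 change -0.73, adjusted p = 0.605). So did the retained-intron transcript ENST00000544550 (log2 change -0.46, adjusted p = 0.696). Spliced forms thus separated in both directions, and so did retained-intron forms. None of these transcripts passed the test over all transcripts. The groups did not overlap for any of them, while those of the gene as a whole did.

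Each transcript's FPKM times its length was then taken as its share of the gene's signal. Retained-intron transcripts held 72.3%, 64.0% and 59.35% of the SNHG1 signal in A libraries and 56.6%, 54.1% and 52.5% in G libraries. All 3 G libraries were below all 3 A libraries. SNHG29 went the other way at a much lower share, with 0.875%, 0.534% and 0.808% against 0.905%, 1.01% and 1.45%. Of the 10 tested hosts with such a transcript, SNHG1 was the 1 with a wholly lower share in G and SNHG29 the 1 with a wholly higher share, and 8 overlapped. Over 6453 tested genes with such a transcript, the share was wholly lower in 3.66% and wholly higher in 9.16%. With 3 against 3 libraries an exact two-sided permutation test cannot go below 0.1, so no test was made.

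**Figure D3:**
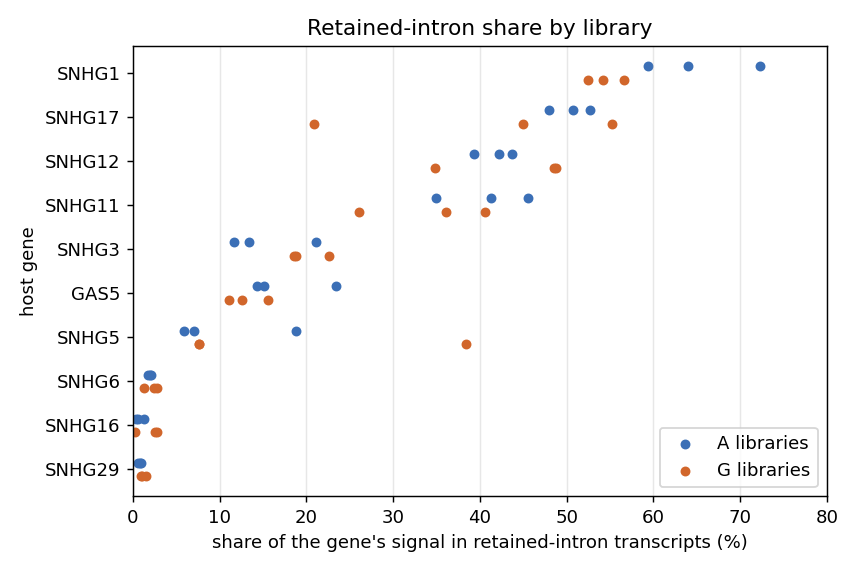
Share of each gene's signal (transcript FPKM times length) in retained-intron transcripts, in percent, for the 10 tested hosts that have one, with A libraries in blue and G libraries in orange. The SNHG1 points of G, at 52.5% to 56.6%, lie left of those of A, at 59.35% to 72.3%, and most other hosts overlap.

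GAS5 showed how unsteady the transcript estimates can be. Its level as a gene stayed within 15.3 to 19.7 FPKM, but 3 different transcripts led it over the 6 libraries. ENST00000450589 read 46.8, 70.8 and 22.3 FPKM in A libraries and 42.2, 2.66 and 9.38 FPKM in G libraries. ENST00000454068 read 38.4 FPKM in A replicate 3 and 49.0 and 39.9 FPKM in G replicates 2 and 3, and at most 0.366 FPKM in the other libraries. ENST00000430245 read 72.9 FPKM in G replicate 1 and at most 0.0214 FPKM elsewhere. These patterns follow single libraries and not the alleles. The retained-intron share of GAS5 was 14.3%, 23.45% and 15.1% in A libraries and 12.5%, 15.6% and 11.1% in G libraries, and overlapped.

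Several other hosts were steadier, but not all. A single transcript led in every library for 12 of the 20 tested hosts, and 8 had more than 1 leading form. Among these 8, SNHG12 and SNHG17 each had 4 leading forms, and SNHG1 and SNHG21 each had 3, as GAS5 did. In ZFAS1 the leading transcript ENST00000371743, of 1008 bases, read 92.3 to 109 FPKM in all libraries. A shorter ZFAS1 form, ENST00000326677, read 19.5, 17.2 and 18.2 FPKM in A libraries and 15.2, 14.3 and 16.4 FPKM in G libraries, without overlap (log2 change -0.24, limma adjusted p = 0.655). In SNHG8 the leading ENST00000602819 had no estimate in G replicate 1, where ENST00000602414 read 6.26 FPKM against 1.12 to 1.97 FPKM elsewhere. That is the library in which the SNHG8 gene value was lowest. In SNHG18, SNHG10, SNHG11 and SNHG4 the leading transcript was lower in all 3 G libraries, as the gene was. For SNHG18 it was ENST00000508179, at 5.52, 5.62 and 4.80 FPKM in A libraries and 4.15, 3.84 and 3.44 FPKM in G libraries (log2 change -0.39, adjusted p = 0.605).

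**Figure D4:**
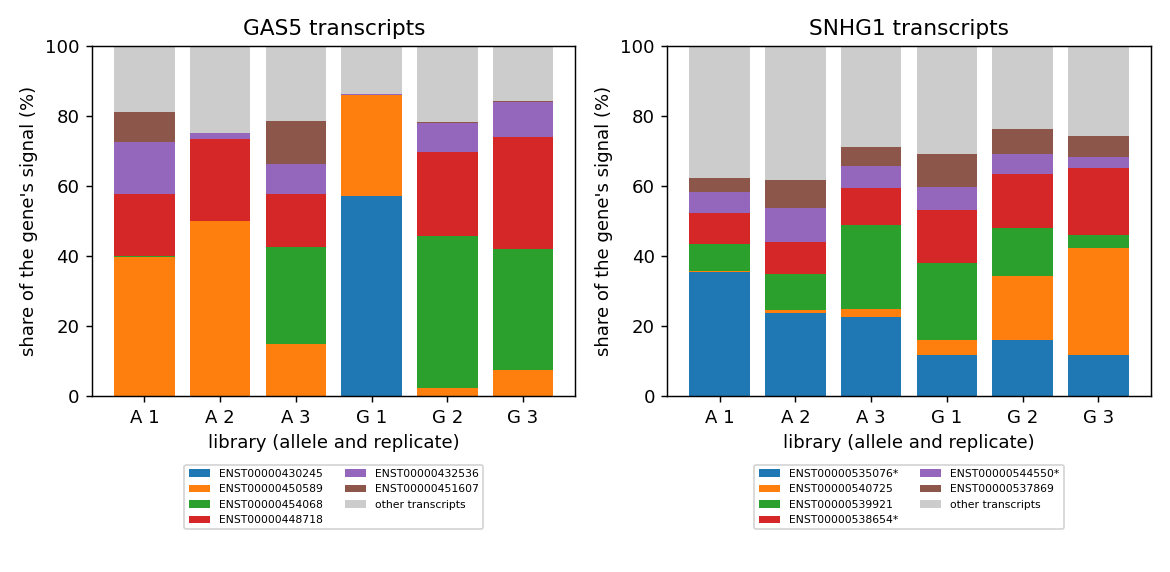
Share of the GAS5 and SNHG1 signal (transcript FPKM times length, in percent) held by the 6 transcripts of each gene with the highest share in any library, one bar per library; an asterisk marks retained-intron transcripts and grey holds all others. In GAS5 the leading form changes between libraries within both alleles, while the SNHG1 form ENST00000535076 takes a larger share in every A bar than in any G bar.

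The snoRNAs themselves could hardly be read in these libraries, which were made from poly(A) RNA, while mature snoRNAs have no poly(A) tail. Inside the 28 hosts lay 139 small RNA genes, 84 of them in SNHG14. Of the 46 inside tested hosts, 37 lay in an intron of the host transcript with the highest mean FPKM, 2 touched an exon and 7 lay outside it. In SNHG1 that transcript was the partly spliced ENST00000535076, SNORD25 to SNORD28 and RF00099 lay outside it, and SNORD30 touched an exon. For SNHG12 and SNHG17 the transcript used held the largest share of the signal in no library. Introns of the other transcripts were not searched. At gene level 27 of the 46 stayed under 1 FPKM in every library and 11 reached it in at least 3, and the median of their means was 0.141 FPKM. These counts take each entry once, although some small RNAs, such as SNORA16A and SNORA17B, have overlapping duplicate entries. For SNORA17B one entry read 0.387 to 2.73 FPKM and the other at most 2.5e-05 FPKM. Duplicates thus add to the entries under 1 FPKM. SNORD12B, shown above, read 2.64, 1.27 and 1.22 FPKM in A libraries and 2.36, 2.24 and 1.49 FPKM in G libraries. SNORA60, in the intron of SNHG11, read 1.099, 0.725 and 1.56 FPKM against 1.23, 0.305 and 0.270 FPKM. Both overlapped between the alleles. SNORD26, in SNHG1, read 0.0917, 1.23 and 1.76 FPKM against 4.11, 2.94 and 4.39 FPKM, with all 3 G libraries above all 3 A libraries. SNORD22, in SNHG1, read 18.8 FPKM in A replicate 3 and at most 0.168 FPKM elsewhere. These values can hold unspliced host RNA as well as the small RNA, and the proportion was not tested. No small RNA gene inside GAS5 or SNHG27 was analysed here.

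The starts of the hosts were read for the pyrimidine run of TOP genes. RefSeq start windows on GRCh38.p14, of 20 bases before and 20 after the annotated start, were searched for CTTTT or CTTTC on the transcribed strand only. A run was found in 10 of 24 host windows (41.7%), in 9 of 18 of tested hosts (50.0%), in 70.5% of 78 windows of ribosomal protein genes and in 10.0% of 35116 windows of all genes. Of the 5 hosts with an unadjusted p under 0.05, 2 had a run. The windows of the same 7 hosts as above and of SNHG4, the remaining host with separated groups, follow, with the run in capitals.
ZFAS1, chr20:49278622-49278661 (+): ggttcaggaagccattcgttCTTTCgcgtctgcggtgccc
SNHG29, chr17:16438967-16439006 (+): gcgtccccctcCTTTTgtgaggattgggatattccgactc
SNHG5, chr6:85678714-85678753 (-): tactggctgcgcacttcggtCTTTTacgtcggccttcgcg
SNHG8, chr4:118278742-118278781 (+): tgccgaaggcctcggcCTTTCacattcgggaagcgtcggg
SNHG4, chr5:139274081-139274120 (+): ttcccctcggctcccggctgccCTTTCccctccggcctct
SNHG10, chr14:95534853-95534892 (-): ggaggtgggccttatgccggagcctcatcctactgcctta
SNHG11, chr20:38446634-38446673 (+): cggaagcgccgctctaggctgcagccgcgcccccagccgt
SNHG18, chr5:9546180-9546219 (+): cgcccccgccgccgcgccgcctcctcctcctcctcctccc
The first 5 hold a run and the last 3 do not, and these 3 hosts, SNHG11, SNHG18 and SNHG10, had the smallest p of all hosts. The other tested hosts without a run were GAS5, SNHG1, SNHG3, SNHG7, SNHG17 and EPB41L4A-AS1. Their unadjusted limma p ran from 0.14 to 0.79. Whether a run goes with the change was not tested. The RefSeq start of the 8 windows above lay within 4 bases of a deposited transcript start. Other counted windows lay further off, at 37 bases for SNHG3, 62 for SNHG26, 121 for SNHG28 and 163 for GAS5. For SNHG27 and SNHG14 the distance was 8464 and 154975 bases. Of these hosts only SNHG26 held a run, and a run at their deposited starts was not searched for. A match describes letters in a window and not a measured start of transcription.

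Genes that act with the hosts or share their architecture were read from the same fit, and 0 were called in any of the following lists. Over all tested genes, an unadjusted p under 0.05 was found on the lower side in 6.82% and on the higher side in 10.5%, and the median log2 change was 0.02. Of 20 proteins of snoRNA particles and their assembly, 2 had an unadjusted p under 0.05, both lower in G (6.82% of all genes), and the list median was -0.01. They were NOP10, a core H/ACA protein at 48.4, 52.7 and 51.1 FPKM in A libraries and 44.4, 46.7 and 42.1 FPKM in G libraries (log2 change -0.19, limma adjusted p = 0.212), and NHP2, another core H/ACA protein (log2 change -0.20, adjusted p = 0.242). FBL, the methyltransferase of C/D particles, had a log2 change of -0.12 (adjusted p = 0.321). Of 39 protein-coding genes with snoRNAs in their introns, 6 had an unadjusted p under 0.05 on the lower side (6.82% of all genes) and 1 on the higher (10.5%), with a median of -0.05. The smallest p values among them were those of the chaperonin subunit TCP1 (log2 change -0.27, adjusted p = 0.184), RPL13 (-0.26, adjusted p = 0.199) and the chaperone HSPA8 (-0.33, adjusted p = 0.203).

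Of the 79 genes of cytosolic ribosomal proteins, 27 had an unadjusted p under 0.05 on the lower side (6.82% of all genes) and 1 on the higher (10.5%). Their median log2 change was -0.13, and 68 of 79 were negative, beside 18 of 20 hosts and 44.9% of all genes. RPL41 read 727, 808 and 694 FPKM in A libraries and 580, 596 and 608 FPKM in G libraries (log2 change -0.32, limma adjusted p = 0.16), without overlap. Among 30 tested genes of ribosomal RNA processing and RNA polymerase I, 1 had an unadjusted p under 0.05, TAF1B, on the higher side (10.5% of all genes), and the median was -0.03. The 2 lists thus had medians below 0, as did the hosts, the snoRNA particle list and the protein-coding genes with intronic snoRNAs. No test compared the lists with the hosts. With equal summed FPKM the medians of hosts and of all genes rose to -0.06 and 0.11. List medians were not taken in that setting.

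Factors of nonsense-mediated decay, which breaks down many spliced hosts, had 5 of 21 genes with an unadjusted p under 0.05, all higher in G (10.5% of all genes), and a median of 0.04, beside 0.02 for all genes. SMG1, the kinase that phosphorylates UPF1, read 4.19, 3.26 and 3.61 FPKM in A libraries and 5.08, 5.25 and 4.72 FPKM in G libraries (log2 change 0.36, limma adjusted p = 0.185). UPF2, a core decay factor, read 5.14, 5.09 and 5.55 FPKM against 6.48, 6.29 and 6.18 FPKM (log2 change 0.23, adjusted p = 0.194). The G libraries were above the A libraries for both, as for NBAS (log2 change 0.22, adjusted p = 0.195). Of 18 genes of LARP1 and the mTORC1 pathway, which control the translation of TOP RNAs, 2 had an unadjusted p under 0.05, both higher in G, a share near the 10.5% of all genes, with a median of 0.04. They were EIF4EBP2, a translation repressor (log2 change 0.16, adjusted p = 0.203), and DEPTOR, an mTOR inhibitor (log2 change 0.23, adjusted p = 0.212).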

How the data were processed

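The members and the gene lists were chosen with earlier results of these data known. The authors processed the reads with tools that the submitters' processing notes name as cutadapt 1.9, HISAT2 2.0.4 and StringTie 1.3.4d. These notes name a mouse genome, but 206348 of the 208460 deposited transcripts carry identifiers of GENCODE release 29, 94.6% of these at the same GRCh38 position. The authors deposited FPKM for genes and transcripts, and beside it, per the file headers, the deposited ratio of G to A, the log2 of that ratio, and p-values with q-values. A value of 0.0001 stands for no estimate. The strand setting of the counting is not given in the sources used here.

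Values were taken as log2(FPKM + 1), which understates changes of low genes. Features that reached 1 FPKM in 3 or more libraries were fitted with limma 3.58.1 (limma-trend, R 4.3.3) and adjusted by Benjamini-Hochberg at 0.05. Python 3.11.15 with pandas 2.3.3 handled the tables. On simulated data for G against A over 12787 genes, the fit recovered 62.2% of 1.5-fold, 93.0% of 2-fold and 97.5% of 4-fold changes. At best 37.8% to 42.0% of values of single-exon genes were whole multiples of a read within 0.02 reads, so no count model was used. Named genes were the tested hosts (library values in full from a mean of 5 FPKM or an unadjusted p under 0.05), the 3 smallest p of each list and genes overlapping a host, of which some are not reported here. Host transcripts were named by level, p or groups without overlap. SNHG16 and other hosts under 5 FPKM, AC015802, SNORD22, SNORD26 and the single GAS5 and SNHG8 forms were singled out after their values were seen. Of the 28 hosts, 24 had a RefSeq start window. The labels do not say whether replicates were separate cultures, so p-values measure only how these libraries vary, possibly for technical reasons. The alternatives changed the pseudocount, filter, scaling, variance model, library weights, replicate block and set of libraries. Summing overlapping same-strand genes, as transcript FPKM times length, was added after seeing the data.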

Additional observations from a re-analysis of the deposited data

How the results depend on the processing

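The number of host genes called was 0 in every setting tried, with a lowest host adjusted p of 0.0927, and so was that of host transcripts, with a lowest of 0.182 (limma). Of the 20 hosts, 12 kept their sign in every setting, with the sums of overlapping genes counted as a setting. SNHG21 lost its sign only in such a sum, which was on transcript FPKM times length. The number of genes called among all genes was 14 as reported, 1 with no filter, 9 with median-ratio size factors, 6 with quantile normalization, 6 with mitochondrial genes left out, 4 with no trend and 0 with the replicate block. Leaving out single libraries gave 5 to 20 (20, 5 and 5 without A replicates 1, 2 and 3, and 10, 6 and 5 without G replicates 1, 2 and 3). The replicate numbers did not pair the libraries (correlations of deviations 0.07, 0.02 and 0.04 for numbers 1, 2 and 3). With the replicate block 0 hosts and 0 genes were called, and the host median stayed at -0.16.

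The host median was -0.060 with equal summed FPKM and -0.12 with mitochondrial genes left out, where that of all genes was 0.11 and 0.06. It was -0.165 to -0.0913 with single libraries left out. Relative to all genes it lay between -0.20 and -0.11 over 17 alternatives. Directions turned with equal summed FPKM for SNHG29 (0.058), GAS5 (0.056), SNHG12 (0.015), ZFAS1 (0.083), SNHG3 (0.043) and SNHG1 (0.077). They turned with quantile normalization for SNHG29 (0.016), ZFAS1 (0.053) and SNHG15 (-0.0061), with mitochondrial genes left out for ZFAS1 (0.021) and SNHG1 (0.019), and with library weights for SNHG1 (0.014). On transcript FPKM times length, the sum of SNHG21 with its overlapping same-strand gene changed by 0.044, and that of SNHG3 with RCC1 by 0.16. Without 1 library, SNHG1 ranged from -0.090 to 0.019, SNHG15 from -0.027 to 0.15, ZFAS1 from -0.105 to 0.031, GAS5 from -0.146 to 0.024 and SNHG3 from -0.110 to 0.052. The causes were not tested. Depth is unknown, so its limit on hosts near 1 FPKM could not be given.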
